A study of Mus musculus with 6 samples.

Results

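The 41 genes described here encode proteins that drive the cell cycle and copy DNA: the G1/S cyclins, cyclin-dependent kinases (CDKs) and RB-E2F factors, the replication helicase and nucleotide enzymes, and the kinases and motors of mitosis. They were taken by symbol from a list, and all 41 are among the 24411 genes of the count tables. The list was drawn up with earlier results of these data known. The libraries come from cultured primary microglia of mice, macrophages that live in the brain. In 3 libraries the cells received FTY720 (fingolimod, a drug related to sphingosine whose phosphate binds sphingosine phosphate receptors) at 1 µM together with LPS (lipopolysaccharide, the endotoxin of Gram-negative bacteria) at 10 ng/ml for 4 h. In the other 3 libraries they received FTY720 alone at 1 µM for 4 h. All 6 libraries therefore carry FTY720, and cells without it or with LPS alone were not analysed here.

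Per the labels' protocols, microglia were detached from mixed glial cultures made from 12 pooled brains of ICR mice aged 3 days, and over 92% of them carried CD11b. Replicates were independent RNA samples; the labels do not tie them to separate pools or cultures, so p-values measure the spread between RNA samples, which may be technical. Microglia markers were abundant, with 4691 to 5424 CPM (reads per 1e+06 library reads after scaling) summed over 16 genes with LPS added and 2951 to 3160 CPM with FTY720 alone. Of the defining markers, Tmem119 had 11 reads with LPS added and 8 with FTY720 alone, and Siglech had 1 and 0. Markers of other brain cells were present: oligodendrocyte-lineage genes summed to 168 to 195 CPM with LPS added and 313 to 340 CPM with FTY720 alone, and neuron genes to 107 to 118 CPM with LPS added and 188 to 251 CPM with FTY720 alone. In bulk RNA, fewer cells of a type and less RNA per cell cannot be told apart.

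As background, D-type cyclins with CDK4 or CDK6 phosphorylate the retinoblastoma protein, which releases E2F transcription factors to switch on the genes for S phase. Cyclin E with CDK2 then fires replication origins, where the MCM2 to MCM7 ring unwinds DNA and PCNA holds the polymerases on the template. Entry into mitosis depends on cyclin A and cyclin B with CDK1, on Polo and Aurora kinases and on the anaphase-promoting complex. Cultured microglia divide in response to colony-stimulating factors, and macrophages that meet LPS are known to slow or stop dividing.

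Promoter windows of Pcna and of 5 genes of the MCM ring are shown here because their products act together in replication yet their transcripts differed in direction: Pcna rose, Mcm2, Mcm3, Mcm6 and Mcm7 fell, and Mcm5 did not pass the test. Mcm7 has 2 windows; the first is printed, and the second held no E2F match. Each window runs from 250 bases before to 50 bases after the transcription start (RefSeq, GRCm38.p6), 5′ to 3′ on the gene's strand. Capitals mark matches to the E2F letters TTTNGCGC or TTTCCCGC on either strand, where overlapping matches run together.
Pcna (chr2:132253131-132253430, minus strand): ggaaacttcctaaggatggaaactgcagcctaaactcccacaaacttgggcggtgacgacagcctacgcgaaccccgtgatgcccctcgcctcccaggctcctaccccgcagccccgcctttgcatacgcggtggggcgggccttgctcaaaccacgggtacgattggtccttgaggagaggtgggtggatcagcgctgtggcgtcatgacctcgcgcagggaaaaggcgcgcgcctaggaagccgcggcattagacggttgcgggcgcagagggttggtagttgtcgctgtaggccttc
Mcm2 (chr6:88898731-88899030, minus strand): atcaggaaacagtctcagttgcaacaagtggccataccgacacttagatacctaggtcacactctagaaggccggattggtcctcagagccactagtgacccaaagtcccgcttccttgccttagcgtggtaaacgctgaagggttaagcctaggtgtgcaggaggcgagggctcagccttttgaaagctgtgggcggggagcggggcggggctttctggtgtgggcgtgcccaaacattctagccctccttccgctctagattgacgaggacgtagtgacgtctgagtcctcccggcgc
Mcm3 (chr1:20820263-20820562, minus strand): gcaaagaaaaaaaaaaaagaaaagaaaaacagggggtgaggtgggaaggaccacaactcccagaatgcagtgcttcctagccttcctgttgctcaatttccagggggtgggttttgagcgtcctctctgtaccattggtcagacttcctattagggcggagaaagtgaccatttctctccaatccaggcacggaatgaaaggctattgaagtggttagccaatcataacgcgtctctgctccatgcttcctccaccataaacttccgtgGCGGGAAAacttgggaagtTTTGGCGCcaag
Mcm5 (chr8:75109259-75109558, plus strand): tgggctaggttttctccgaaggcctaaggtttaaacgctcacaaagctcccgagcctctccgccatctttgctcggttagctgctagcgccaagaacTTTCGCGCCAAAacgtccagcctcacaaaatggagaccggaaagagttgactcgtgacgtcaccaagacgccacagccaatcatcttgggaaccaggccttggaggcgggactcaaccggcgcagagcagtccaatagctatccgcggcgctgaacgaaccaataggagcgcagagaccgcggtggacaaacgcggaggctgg
Mcm6 (chr1:128359656-128359955, minus strand): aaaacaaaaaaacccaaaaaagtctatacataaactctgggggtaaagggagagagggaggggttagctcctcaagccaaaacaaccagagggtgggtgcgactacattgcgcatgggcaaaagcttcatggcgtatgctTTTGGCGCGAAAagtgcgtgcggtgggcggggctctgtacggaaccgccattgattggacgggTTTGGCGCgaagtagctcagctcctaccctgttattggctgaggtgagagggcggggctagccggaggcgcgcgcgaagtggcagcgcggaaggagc
Mcm7 (chr5:138171834-138172133, minus strand): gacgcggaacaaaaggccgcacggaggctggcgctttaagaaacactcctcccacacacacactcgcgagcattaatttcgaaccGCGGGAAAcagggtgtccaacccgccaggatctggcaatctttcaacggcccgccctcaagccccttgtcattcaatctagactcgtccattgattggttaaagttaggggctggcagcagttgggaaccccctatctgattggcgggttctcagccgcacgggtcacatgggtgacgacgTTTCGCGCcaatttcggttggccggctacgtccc
A window was found for 32 of the 41 genes, and 7 of these 32 (21.9%) held an E2F match in any of their windows, against 740 of 27025 mouse genes with a window (2.74%). Among the genes with a window, a match was present in 4 of 8 called lower, 0 of 4 called higher and 3 of 13 tested but not called. The CHR letters TTTGAA, an element of mitotic promoters, were present in 13 of 32 members (40.6%) and 20.2% of all genes, and CCAAT in 25 of 32 (78.1%) and 41.1%. These motifs were searched on both strands and chosen after the expression values were seen. Pcna, which rose, and Mcm2, which fell, both held 0 E2F matches. A match describes letters, not a bound site.

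Depth limits what the scarce members can show. Gene reads numbered 2431775 to 2800738 with LPS added and 2729532 to 3454647 with FTY720 alone, of which the rRNA-like genes Rn45s, Lars2 and Mir6236 took 38.2% to 44.9% and 28.8% to 58.96%. The 41 genes together held 1381 to 1705 reads with LPS added and 1473 to 2320 with FTY720 alone. FTY720 replicate 3 stood apart from its group, with a chi-square per degree of freedom of 3.83 and 4.86 against the other replicates, which were at 1.34 against each other.

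Of the 41 genes, 30 had enough reads to be tested across all genes with edgeR's quasi-likelihood test, and 12 of them changed at an adjusted p under 0.05. Pcna, Aurka, Ccne1 and Cdk6 rose with LPS. Cdk4, Cdk2, Mcm2, Mcm3, Mcm6, Mcm7, Rrm1 and Cenpe fell. Those called higher were 13.3% of the tested members, and 23.3% of all 10124 tested genes were called higher. Those called lower were 26.7%, and 22.7% of all tested genes were called lower, so the share of members called lower lay near that of the whole transcriptome. Over both directions 46.0% of all tested genes were called. The median log2 fold change of the 30 was -0.14 (0.034 without FTY720_LPS replicate 2 and 0.20 with cyclic loess scaling), and that of all tested genes was -0.04. Of the 30 tested members, groups of libraries did not overlap for 5 above and 10 below, and over all tested genes for 27.1% above and 26.9% below.

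**Figure D1:**
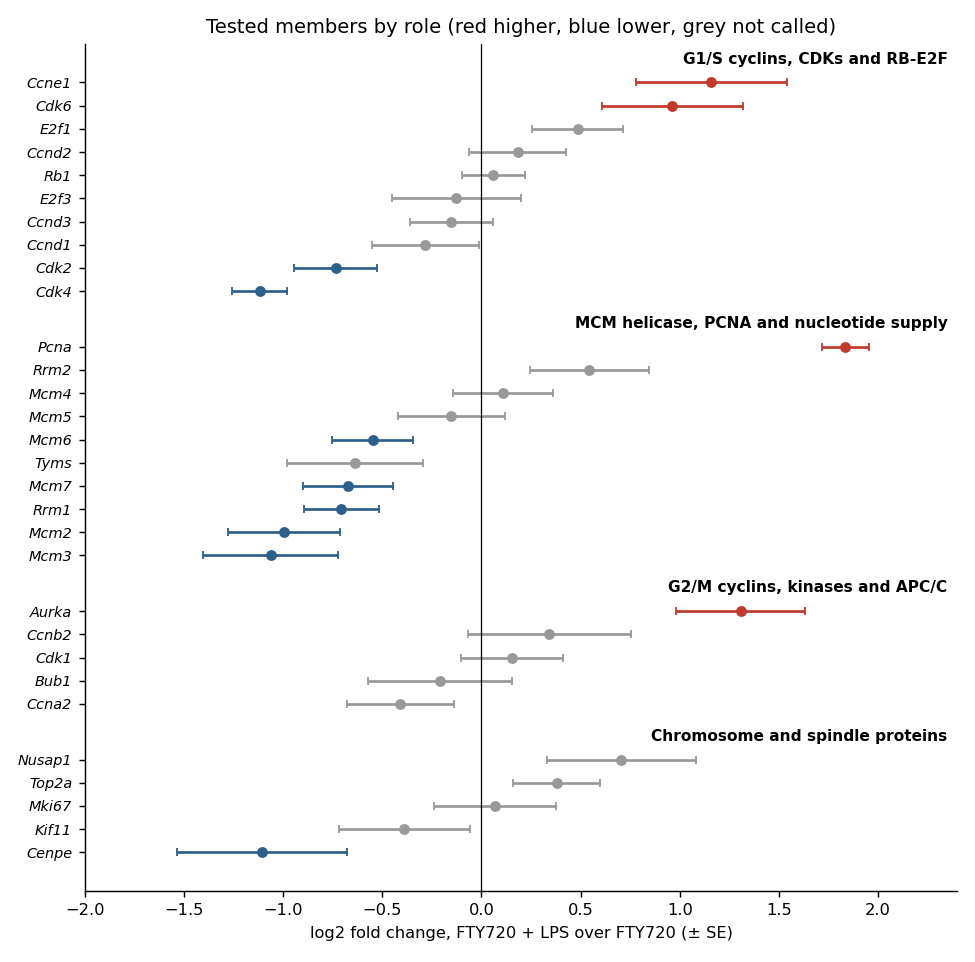
Log2 fold change of the 30 tested members, FTY720 + LPS over FTY720, grouped by role; points are edgeR estimates and bars are ± SE (3 libraries per group). Pcna stands at 1.84, the highest, and Cdk4 at -1.12, the lowest, with Mcm2, Mcm3, Mcm6 and Mcm7 left of 0, Mcm4 at 0.11, Mcm5 at -0.15 and mitotic genes on both sides of 0.

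Pcna and Cdk4 changed in every alternative analysis run, and so did Aurka and Rrm1. The highest edgeR adjusted p over the alternatives was 7e-06 for Pcna and 4.54e-05 for Cdk4. For Aurka (0.0399) and Rrm1 (0.048) it lay just under the threshold. The remaining calls were less firm: with DESeq2 2 members were higher (Aurka and Pcna) and 2 lower (Cdk4 and Rrm1), and with limma voom and cyclic loess scaling, which removes a trend of fold change on mean expression, 7 were higher and 3 lower. Over all genes DESeq2, run without the low-count filter, called 10.3% higher and 6.42% lower. Scaling by total library size left 2 higher and 8 lower. Single libraries moved the counts too: 2 were higher and 4 lower without FTY720_LPS replicate 1, 3 and 5 without FTY720_LPS replicate 2, 2 and 5 without FTY720 replicate 1, and 2 and 7 without FTY720 replicate 2. Without FTY720 replicate 3, which stood apart, 7 were higher and 8 lower, and the 4 and 8 called with all libraries were among them. The shares of all tested genes called higher and lower moved as well. They were 20.4% and 16.1% without FTY720_LPS replicate 1, and 19.4% and 16.4% without FTY720_LPS replicate 2. Leaving out FTY720 replicate 1, 2 or 3 gave 20.1% and 18.1%, 22% and 19.2%, or 26.6% and 24.3%. Cyclic loess scaling gave 20.7% and 18.4%, and total library size 7.57% and 26.6%. Of the 30 tested members 27 had a mean under 5 log2 CPM. Among them 3 were called higher and 7 lower. In that range 13.5% of all tested genes were called higher and 26.2% lower.

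Of the kinases of the G1/S step Cdk4 and Cdk2 fell and Cdk6 rose; differences between the kinases were not tested. Cdk4, the main partner of D-type cyclins, had 37.3, 37.2 and 36.05 CPM in the 3 libraries with LPS added, against 78.8, 72.8 and 88.3 CPM with FTY720 alone. Every library with LPS lay below every library without it, and the fall was 2.17-fold, with a log2 fold change of -1.12 ± 0.14 (SE, 3 libraries per group; edgeR adjusted p = 6.83e-07). Cdk2, the partner of cyclin E, had 15.7, 11.00 and 16.5 CPM with LPS added, against 20.4, 27.4 and 24.01 CPM with FTY720 alone, again with no overlap. It fell 1.66-fold (-0.73 ± 0.21, adjusted p = 0.00636), a call that ended with DESeq2 (adjusted p = 0.0519) and without FTY720_LPS replicate 2 (0.0657).

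Cdk6, the other kinase that pairs with D-type cyclins, was called higher. It had 8.58, 8.04 and 4.005 CPM with LPS added, against 4.005, 2.34 and 4.24 CPM with FTY720 alone. The groups overlapped, since FTY720_LPS replicate 3 lay within the range of the others, and the rise was 1.95-fold (0.96 ± 0.36, adjusted p = 0.0309). This call ended in 8 of 15 alternatives, among them upper-quartile scaling, total library size, DESeq2, the replicate block (0.92, adjusted p = 0.0586) and the fits without FTY720_LPS replicate 1 or 2 or FTY720 replicate 1 or 2. Per kilobase of annotated exon, Cdk4 stood at 11.3 CPM with LPS added and 24.6 CPM with FTY720 alone. Cdk6 stood at 0.491 and 0.252 CPM per kilobase, and Cdk2 at 2.31 and 3.85. Cdk4 was the most abundant of these kinases per length in both groups.

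None (0) of the 3 D-type cyclins passed the edgeR test, 0 did at an unadjusted p under 0.05, and 0 passed with DESeq2 or limma voom. Ccnd1 had 6.34, 8.46 and 8.51 CPM with LPS added, against 10.3, 8.35 and 9.42 CPM with FTY720 alone. Ccnd2 had 16.8, 16.9 and 19.5 CPM, against 15.02, 22.4 and 10.4 CPM, and Ccnd3 had 27.97, 19.9 and 14.02 CPM, against 21.7, 25.4 and 23.1 CPM. The groups overlapped for all 3, with approximate 95% intervals of the log2 fold change from -0.81 to 0.24 for Ccnd1, -0.30 to 0.66 for Ccnd2 and -0.56 to 0.26 for Ccnd3. Neither a halving nor a doubling lies inside these intervals, which come from the main edgeR fit alone. With total library size alone Ccnd1 stood at -0.60 ± 0.36 and Ccnd3 at -0.46 ± 0.30. Ccnd1 stood at -0.25 ± 0.40 with DESeq2, and Ccnd2 at 0.53 ± 0.25 without FTY720 replicate 2. In those alternatives a halving of Ccnd1 or Ccnd3, or a doubling of Ccnd2, was not excluded.

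Ccne1, one of the cyclins that activate CDK2, had 5.97, 4.23 and 5.51 CPM with LPS added, against 2.002, 1.67 and 3.06 CPM with FTY720 alone. The groups did not overlap and the rise was 2.23-fold (1.16 ± 0.38, adjusted p = 0.0165), on 37 against 24 reads. The call ended with total library size alone (0.84, adjusted p = 0.139), with DESeq2 (0.123) and without FTY720_LPS replicate 1 (0.0788), FTY720 replicate 1 (0.0622) or FTY720 replicate 2 (0.0556). With the rRNA-like genes left out Ccne1 did not pass the low-count filter and was not tested. Its relative Ccne2 had 18 against 22 sense reads and was not tested. Rb1, the retinoblastoma gene, stood at 33.9, 29.6 and 33.04 CPM with LPS added, against 32.7, 28.04 and 31.8 CPM with FTY720 alone, with overlapping groups and an interval of -0.25 to 0.37. E2f1, an activating E2F factor, had 12.7, 14.4 and 16.02 CPM, against 9.34, 9.35 and 11.5 CPM. Its groups did not overlap, but it did not pass the test (0.48 ± 0.23, adjusted p = 0.0919), except without FTY720 replicate 3 and with cyclic loess scaling. E2f3 had 34 against 54 reads and was not called (-0.13 ± 0.33).

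In the replication group 5 of 10 tested genes fell and 1 rose, with a median log2 fold change of -0.59. These are 50% lower and 10% higher, beside 22.7% and 23.3% of all tested genes. In the alternatives 1 fell with DESeq2 or cyclic loess scaling, 2 without FTY720_LPS replicate 1 and 3 without FTY720_LPS replicate 3 or FTY720 replicate 1. Pcna, the sliding clamp of the replication fork, was the gene that rose (chromosome 2, 132249162 to 132253314, minus strand, GRCm38). It had 278, 291 and 319 CPM with LPS added, against 74.4, 78.1 and 94.6 CPM with FTY720 alone. The lowest library with LPS lay far above the highest without it, and the rise was 3.57-fold (1.84 ± 0.12, adjusted p = 1.36e-11), between 1.397 and 1.95 on the log2 scale over 15 alternatives. Pcna was also the most abundant member per length, at 123 CPM per kilobase with LPS added and 34.3 with FTY720 alone. Among the 418 tested genes of like mean level (7 to 8 log2 CPM), 67.2% were called higher and the median was 0.50. Pcna has annotated pseudogenes, Pcna-ps1 and Pcna-ps2, and reads that map equally well to several places are not in these counts.

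**Figure D2:**
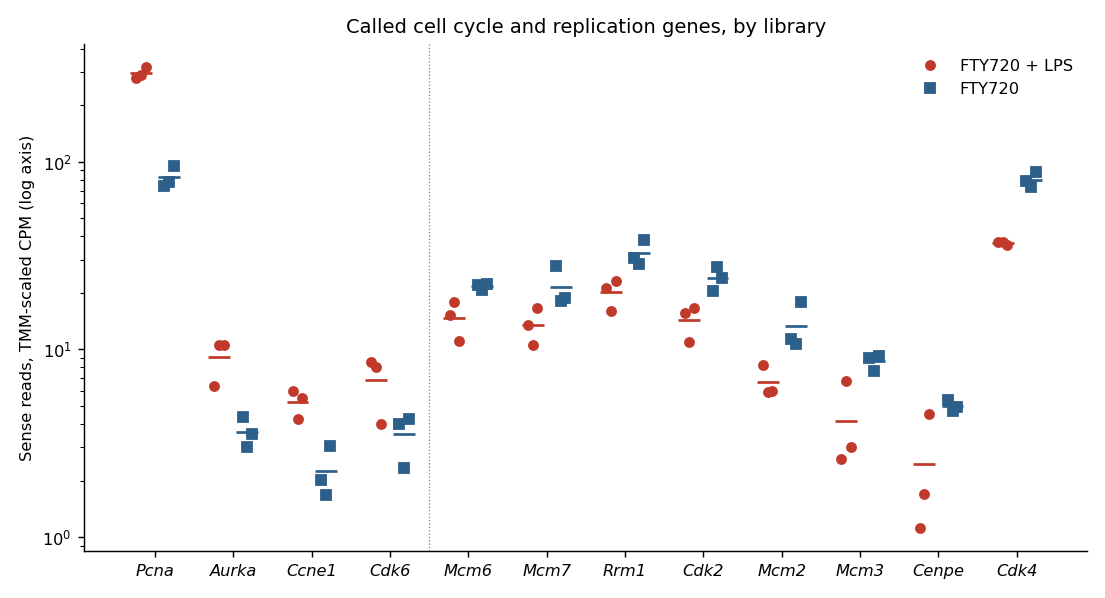
TMM-scaled CPM (log axis) of the 12 called members in each library, with FTY720 + LPS (circles) left of FTY720 (squares) and lines at the group means. Pcna, at 278 to 319 CPM with LPS and 74.4 to 94.6 CPM without, is the most abundant; Cdk6 is the called gene whose groups overlap.

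The MCM genes, whose products form the helicase ring, fell or did not pass the test. Mcm2 had 8.21, 5.92 and 6.01 CPM with LPS added, against 11.3, 10.7 and 17.9 CPM with FTY720 alone (-0.996 ± 0.28, adjusted p = 0.00621). Mcm3 had 2.61, 6.77 and 3.004 CPM, against 9.01, 7.68 and 9.18 CPM (-1.06 ± 0.34, adjusted p = 0.0144). For both, every library with LPS lay below every library without it.

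Mcm6 had 15.3, 17.8 and 11.01 CPM with LPS added, against 22.02, 20.7 and 22.4 CPM with FTY720 alone (-0.55 ± 0.21, adjusted p = 0.03296). Mcm7 had 13.4, 10.6 and 16.5 CPM, against 27.7, 18.03 and 18.8 CPM (-0.67 ± 0.23, adjusted p = 0.0199). These groups did not overlap either. Mcm4 had 10.8, 11.8 and 16.02 CPM, against 13.02, 14.4 and 8.71 CPM, and Mcm5 had 11.9, 10.6 and 9.51 CPM, against 16.7, 8.01 and 11.3 CPM. Both overlapped between groups, with intervals of -0.39 to 0.60 for Mcm4 and -0.68 to 0.38 for Mcm5, so the 6 subunits of the ring were not shown to share a direction.

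The 4 MCM calls were lost with DESeq2 (adjusted p 0.0577 to 0.174) and with cyclic loess scaling (0.0659 to 0.0864), where the direction stayed downward. Mcm3 also lost its call without FTY720_LPS replicate 1 (0.125) or replicate 3 (0.0761). Mcm6 lost it without FTY720_LPS replicate 1 (0.0905), FTY720_LPS replicate 3 (0.176) or FTY720 replicate 1 (0.0754). Mcm7 lost it without FTY720_LPS replicate 1 (0.0728), FTY720_LPS replicate 2 (0.129) or FTY720 replicate 1 (0.146).

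The subunits of ribonucleotide reductase, the enzyme that makes deoxyribonucleotides, differed in their calls. Rrm1, the large subunit, had 21.3, 16.1 and 23.03 CPM with LPS added, against 30.7, 28.4 and 38.4 CPM with FTY720 alone. It fell 1.63-fold with no overlap (-0.71 ± 0.19, adjusted p = 0.00394). Rrm2, the small subunit, had 7.09, 11.4 and 10.5 CPM, against 6.01, 4.67 and 8.48 CPM, and was not called (0.54 ± 0.30, adjusted p = 0.143), except without FTY720 replicate 3 and with cyclic loess scaling. Whether the subunits differ from each other was not tested. Tyms, which makes thymidylate, had 25 against 57 reads and was not called (-0.64 ± 0.34), although every library with LPS lay below every library without it.

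Mitotic genes were scarce, and most were not called or could not be tested. Aurka, the Aurora A kinase of the spindle poles, was the exception among 12 cyclins, kinases and anaphase-promoting factors, of which 5 could be tested. It had 6.34, 10.6 and 10.5 CPM with LPS added, against 4.34, 3.005 and 3.53 CPM with FTY720 alone. The groups did not overlap, and the rise was 2.47-fold (1.31 ± 0.32, adjusted p = 0.00225) on 63 against 37 reads.

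Cdk1, the kinase that starts mitosis, had 11.9, 9.73 and 10.5 CPM with LPS added, against 10.3, 7.01 and 11.3 CPM with FTY720 alone. It overlapped between groups, with an interval of -0.35 to 0.66. Ccna2, a cyclin of S and G2 phase, stood at -0.41 ± 0.27, Ccnb2, a mitotic cyclin, at 0.34 ± 0.41 and the checkpoint kinase gene Bub1 at -0.21 ± 0.36, none of them called. For Ccna2 every library with LPS lay below every library without it. Summed over the 12 genes, the level was 47.0, 48.7 and 56.1 CPM with LPS added, against 57.1, 43.4 and 53.7 CPM with FTY720 alone, and the ranges overlapped.

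Of 8 chromosome and spindle genes 5 could be tested and 1 fell. Cenpe, a kinetochore motor, had 1.12, 1.69 and 4.51 CPM with LPS added, against 5.34, 4.67 and 4.94 CPM with FTY720 alone (-1.11 ± 0.43, adjusted p = 0.0388). It rested on 16 against 51 reads and lost its call in 7 of 15 alternatives, among them DESeq2 (0.235), the replicate block (-1.08, adjusted p = 0.0646) and the fits without FTY720_LPS replicate 1 (0.259), FTY720_LPS replicate 2 (0.162), FTY720 replicate 1 (0.0984) or FTY720 replicate 2 (0.053). Top2a, which untangles DNA, had 13.1, 16.5 and 19.02 CPM, against 12.3, 12.02 and 12.5 CPM. Its groups did not overlap, yet it was not called (0.38 ± 0.22, adjusted p = 0.164). Nusap1, a spindle protein, stood at 0.71 ± 0.37 and the motor Kif11 at -0.39 ± 0.33, neither called, although Nusap1 was called higher without FTY720 replicate 3 and with cyclic loess scaling.

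The 11 members with too few reads to test were Ccne2, Ccnb1, Aurkb, Plk1, Bub1b, Cdc20, Ube2c, Birc5, Tpx2, Kif20a and Cenpf. They had 5 to 29 reads summed over the 3 libraries with LPS added and 13 to 46 with FTY720 alone. In CPM the groups did not overlap for Tpx2, which lay above with LPS, and Ccnb1, which lay below. Aurkb, the Aurora kinase of the chromosomal passenger complex, had 3, 0 and 2 reads, against 4, 7 and 2. A count of 0 allows 3 reads, which is 0.706 to 1.502 CPM in these libraries, a limit that covers counting error only. With no low-count filter all 41 genes were fitted, and the same 4 and 8 genes were called.

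Mki67, which encodes the proliferation marker Ki-67, was not called on its sense reads, while reads on the other strand of its exons were very unequal. Sense reads numbered 22, 14 and 20 with LPS added, against 20, 32 and 25 with FTY720 alone. In CPM the groups overlapped, and the gene was not called (0.07 ± 0.31, interval -0.53 to 0.67). Reads on the opposite strand of its exons numbered 73, 79 and 75 with LPS added, against 1, 0 and 0 with FTY720 alone. The ratio of the sums, 227 against 1, was 330.1 after scaling (exact 95% counting interval 58.7 to 13090; edgeR on opposite-strand counts, adjusted p = 1.58e-16). That interval pools the reads of each group and covers counting error only. Sense counts were chosen for all members because these opposite-strand reads of Mki67 were already known. The ratio and p-value therefore describe a known difference and are not independent support for it.

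With both strands counted together Mki67 was called higher (2.37, adjusted p = 5.06e-09), although it was not called on sense reads. Mki67 lies on chromosome 7 (135689784 to 135716361, minus strand, GRCm38). On the plus strand, the gene for the receptor phosphatase Ptpre ends 3490 bp beyond the 3′ end of Mki67. Ptpre had 939 sense reads with LPS added, against 459 with FTY720 alone, and rose (1.57 ± 0.13, adjusted p = 8.32e-10). The unverified model Gm45240 (674 bp) lies on the plus strand inside Mki67 and is not listed in the count tables. Which transcript the opposite-strand reads belong to was not tested.

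**Figure D3:**
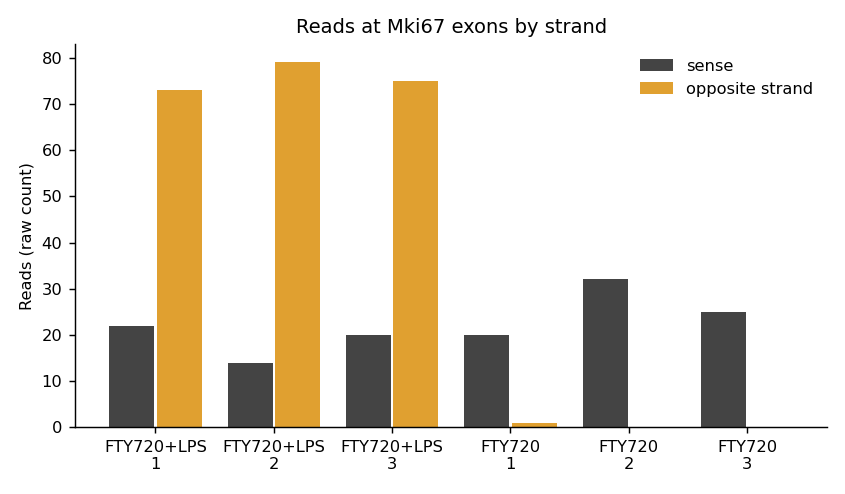
Raw reads on the sense strand (dark bars) and the opposite strand (light bars) of Mki67 exons in each library, FTY720 + LPS left of FTY720. Opposite-strand reads number 73 to 79 with LPS and 0 to 1 without, while sense reads number 14 to 22 and 20 to 32.

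Opposite-strand reads were enough to be tested at 4 members, of which Mki67 was called higher and Kif20a lower. Of the 614 genes tested on that strand 40.2% were called, 34.5% higher and 5.7% lower. At Kif20a, a mitotic motor, they numbered 13, 10 and 2 with LPS added, against 30, 21 and 27 with FTY720 alone (-1.11 ± 0.37, adjusted p = 0.0153). Its sense reads numbered 9, 6 and 8 with LPS added, against 7, 9 and 13 with FTY720 alone. Cdc23, an anaphase-promoting subunit that overlaps Kif20a by 2327 bp on the other strand, fell in its own sense reads (-0.93 ± 0.20, adjusted p = 5.18e-04). The Kif20a call ended without the low-count filter (0.0712), with DESeq2 (0.118) and without FTY720_LPS replicate 3 (0.113) or FTY720 replicate 1 (0.0782). At Ccne2, which overlaps Ints8, and at Ccna2, which overlaps Exosc9, opposite-strand reads were not called.

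Other genes of the cell cycle are given by list, and their counts stand against 23.3% of all tested genes called higher and 22.7% called lower. Of 5 tested CDK inhibitors, from 8 listed, 3 rose and 0 fell (median 1.07). With total library size alone 2 rose and 1 fell, and with upper-quartile scaling 3 rose and 1 fell. The lowest of the 5 stood at -0.69, not called, and for 1 of the 5 every library with LPS lay below every library without it. Cdkn1a, which encodes p21, a CDK inhibitor that also binds PCNA, had 352, 356 and 355 CPM with LPS added, against 72.4, 76.1 and 56.7 CPM with FTY720 alone. It rose 5.21-fold with no overlap (2.38 ± 0.12, adjusted p = 1.60e-13). Cdkn2b, which encodes the CDK4 and CDK6 inhibitor p15, rose by 2.05 ± 0.34 on 69 against 24 reads, and Cdkn1b, which encodes p27, was not called (-0.06 ± 0.14).

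The list of growth factor and MYC input mixes growth-promoting with antiproliferative genes, so its median gives no direction of growth input. Of its 11 tested genes 6 rose and 0 fell (median 0.64), and 4 rose with total library size alone. The antiproliferative genes Btg1 and Tob1 led them, at 2.21 ± 0.12 and 2.06 ± 0.13, while Myc, with 34 against 63 reads, was not called (-0.35 ± 0.34). Of 17 damage checkpoint genes 4 rose and 5 fell (median -0.34), and 2 rose and 2 fell with DESeq2. Without FTY720_LPS replicate 1 the counts were 2 and 4, and without FTY720_LPS replicate 2 they were 4 and 2. The stress genes Gadd45b and Gadd45a rose by 5.15 ± 0.13 and 1.68 ± 0.14, whereas the repair genes Brca2 and Trp53bp1 stood at -1.09 ± 0.35 and -1.07 ± 0.24, both called lower. The Brca2 call ended with DESeq2, with cyclic loess scaling and without FTY720_LPS replicate 2 (adjusted p up to 0.188).

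Genes of origin licensing and of CMG, the assembled helicase, did not follow the MCM genes as a block. Of 14 tested genes of this list 6 rose and 3 fell (median 0.25). With total library size alone 2 rose and 3 fell. Orc1, the largest origin recognition subunit, had 12.3, 12.3 and 8.51 CPM with LPS added, against 2.34, 1.34 and 2.354 CPM with FTY720 alone, and rose 5.36-fold (2.42 ± 0.34, adjusted p = 4.16e-06). Cdc6, the loader that joins it, stood at 1.22 ± 0.40, a call that ended in 5 of 14 alternatives. Orc5 and Orc3 fell, at -1.82 ± 0.44 and -0.63 ± 0.17, with 10 against 53 reads of Orc5, whose call ended with cyclic loess scaling. The Orc3 call ended with both strands counted together (-0.30, adjusted p = 0.108).

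Of 24 tested polymerases and fork factors 8 fell and 1 rose (median -0.37), with 3 lower by DESeq2 and 4 lower and 2 higher with cyclic loess scaling. Without FTY720_LPS replicate 1, 3 fell. Dnmt1, the maintenance DNA methyltransferase, fell 2.62-fold (-1.39 ± 0.22, adjusted p = 2.18e-05), and Pole2, a polymerase epsilon subunit, stood at -1.32 ± 0.42 on 14 against 52 reads, a call that ended in 4 of 15 alternatives. Pole4, another subunit of that polymerase, was the gene that rose (0.78 ± 0.17), but not with total library size alone. In the RB and E2F list 4 of 13 fell and 0 rose (median -0.12), led by the E2F partner Tfdp2 (-1.14 ± 0.21) and the repressor E2f6 (-0.82 ± 0.23). The Tfdp2 call ended with both strands counted together (-0.42, adjusted p = 0.0678). Only 2 fell with DESeq2, with the replicate block and without FTY720_LPS replicate 2, FTY720_LPS replicate 3 or FTY720 replicate 1. Of 15 other nucleotide genes 3 rose and 1 fell (median -0.14): Impdh2, of guanine nucleotide synthesis, at 1.29 ± 0.15, the deoxycytidine kinase gene Dck at 1.11 ± 0.18, and the mitochondrial thymidine kinase gene Tk2 at -0.99 ± 0.21.

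Among 23 other mitotic genes 5 rose and 4 fell (median -0.06), with 3 and 2 by DESeq2 and 2 lower without FTY720_LPS replicate 1, FTY720_LPS replicate 3 or FTY720 replicate 3. Kif23, a motor of cell division, stood at 2.20 ± 0.46 on 36 against 11 reads, and Ccnf, which encodes cyclin F, rose by 1.48 ± 0.21. Cenpa, the centromeric histone variant, fell by 2.75-fold (-1.46 ± 0.26), and Cdca8 stood at -0.89 ± 0.35, a call that held in 5 of 15 alternatives. Of 22 ubiquitin ligase genes 6 rose and 3 fell (median 0.03), while with total library size alone 1 rose and 4 fell and with upper-quartile scaling 6 rose and 6 fell. Cks2, a CDK-binding protein, had 35.1, 46.96 and 49.6 CPM with LPS added, against 3.67, 7.34 and 8.95 CPM with FTY720 alone (2.66 ± 0.24, adjusted p = 3.18e-09). Skp1a, an SCF ligase subunit, stood at 0.98 ± 0.13, and Cdc23 and Cdc26, anaphase-promoting subunits, at -0.93 ± 0.20 and -0.77 ± 0.28; the Cdc26 call ended in 5 of 15 alternatives. Of 25 other cyclins and CDKs 9 rose and 3 fell (median 0.15; 2 and 3 with total library size alone), with Ccng2 at 1.26 ± 0.13, the transcription kinase Cdk12 at 1.07 ± 0.13, Ccnh at -1.39 ± 0.32 and Cdk18 at -0.70 ± 0.26, whose call ended in 5 of 15 alternatives.

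**Figure D4:**
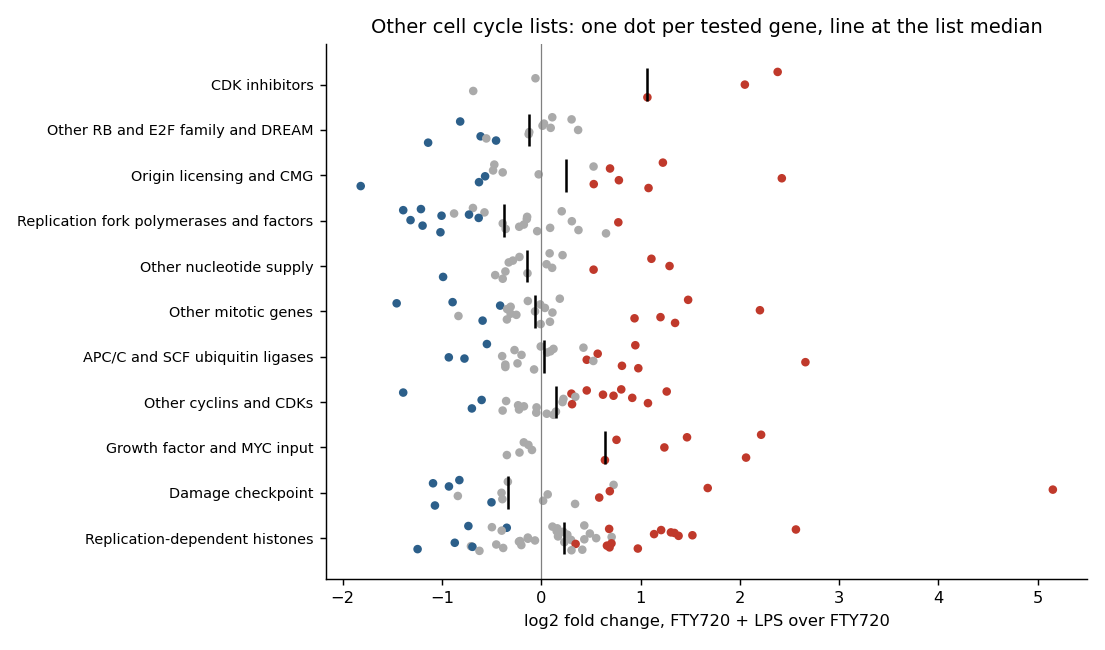
Log2 fold change, FTY720 + LPS over FTY720, of each tested gene in the other cell cycle lists; red dots were called higher, blue lower and grey not called, and black lines are list medians. The medians of CDK inhibitors (1.07) and of the growth factor and MYC list, which includes antiproliferative genes (0.64), lie farthest above 0. The fork factor median (-0.37) lies farthest below.

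Histone genes, whose replication-dependent transcripts lack poly(A) tails and are kept by rRNA depletion, were read from 66 symbols, of which 45 were tested. Of these 13 rose (28.9%, beside 23.3% of all tested genes) and 5 fell (11.1%, beside 22.7%), with a median of 0.23. With total library size alone 6 rose and 6 fell, and with DESeq2 10 rose and 0 fell. Called lower were 1 without FTY720_LPS replicate 1 or 2, 2 without FTY720 replicate 1 and 3 without FTY720_LPS replicate 3. Hist1h2ad had 16.4, 14.4 and 22.5 CPM with LPS added, against 3.34, 3.005 and 2.59 CPM with FTY720 alone (2.56 ± 0.29, adjusted p = 2.01e-07), and Hist1h2bj stood at 1.52 ± 0.26. Hist2h3b and Hist1h4b stood at -1.25 ± 0.45 and -0.87 ± 0.28, calls that each ended in 5 of 15 alternatives. Histone genes are near-identical copies, so reads that map to several of them were not counted and values of single genes are uncertain.

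Markers of several cell types moved with the comparison. Over all tested genes 23.3% were called higher and 22.7% lower, and these shares changed with mean level. Above 8 log2 CPM 84.3% were higher and 2.89% lower, and at 7 to 8 log2 CPM 67.2% and 10.3%. At 2 to 3 log2 CPM 8.89% were higher and 25.6% lower. Whether markers moved more than genes of like level was not tested. Of 8 tested oligodendrocyte-lineage markers 7 were lower and 0 higher with LPS (Olig2 at -2.47 ± 0.31 and Sox10 at -2.24 ± 0.51), and of 4 tested neuron markers 3 were lower and 0 higher (Dcx at -1.16 ± 0.16 and Map2 at -0.93 ± 0.17). Of 12 tested microglia markers 11 were higher and 0 lower, led by Aif1 (1.20 ± 0.35) and the fractalkine receptor gene Cx3cr1 (1.10 ± 0.18), with 2 higher at total library size alone and 6 with cyclic loess scaling. The Aif1 call ended with total library size alone, with DESeq2 and without FTY720_LPS replicate 1 (adjusted p up to 0.0895). All 4 tested monocyte and border macrophage markers were higher, led by Pf4 (1.13 ± 0.32) and Ms4a7 (0.996 ± 0.12), but none (0) of them with total library size alone. Astrocyte markers were higher in 2 of 7 (Gja1 at 1.22 ± 0.23 and Aqp4 at 1.03 ± 0.20) and lower in 1 (Slc1a2 at -1.30 ± 0.24), and none (0) of 6 markers of fibroblasts and mural cells were called by edgeR (3 at an unadjusted p under 0.05, 0 with DESeq2 and 1 with limma voom). The lists that moved did so in the same libraries as the falls in MCM genes and the rise in Pcna, and their part in those results was not tested.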

How the data were processed

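The authors deposited raw read counts per gene for each library, in the layout of STAR gene counts (both strands together and each strand). Per the submitters' processing notes, the build was mm10, and the tools listed are STAR 2.5.1, Trimmomatic 0.33, CASAVA 1.8.2 and DESeq2; no source here states the annotation or settings. Per the labels' protocols, libraries were rRNA-depleted, strand-specific and randomly primed. Such tables hold uniquely mapped reads. The strand with 98.4% to 98.9% of gene reads was used as sense. The STAR summary lines entered neither library sizes nor tests; they held 24.4% to 27.0% unmapped, 7.69% to 8.15% multimapping, 42.2% to 44.5% no-feature and 0.0748% to 0.114% ambiguous reads.

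The quasi-likelihood test of edgeR 4.0.16 was run in R 4.3.3 on 10124 genes that passed filterByExpr (minimum count 10), with TMM scaling. Adjusted p-values are Benjamini-Hochberg over all tested genes, threshold 0.05. SE is the absolute log2 fold change over the square root of F. CPM use TMM-scaled library sizes; mean log2 CPM used a prior count of 2. Opposite-strand counts were fitted with the sense library sizes. Levels per kilobase use the union of exons of GENCODE M21 (GRCm38, also called mm10). The fit was tested on simulated data. Alternatives used DESeq2 1.42.0 and limma 3.58.1.

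The members and lists were chosen with earlier results of these data known. Named genes are all members and, of each other list, up to 2 called genes per direction, ranked by size of change, at a mean log2 CPM of 1 or more; Cdkn1b, Myc, Ptpre, Tmem119 and Siglech were named after their values were seen.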

Additional observations from a re-analysis of the deposited data

Results flagged for a closer look

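Reads on the opposite strand of Mki67 lie outside the sense counts on which the comparison rests. They were already known when sense counts were chosen, so the values below describe a known difference. They summed to 227 over the 3 libraries with LPS added and to 1 over the 3 with FTY720 alone, while sense reads summed to 56 and 77. The call held in each of the 13 alternatives that fitted opposite-strand counts, at log2 fold changes of 7.24 to 9.54.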

How the results depend on the processing

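Over 448 values of single members in 15 alternatives, 403 kept their side of the threshold, 38 lost a call, 7 gained one and 0 reversed a call. Members called higher, 4, became 2 with total library size alone, 2 with DESeq2 and 7 with cyclic loess. Members called lower, 8, became 2 with DESeq2 and 3 with cyclic loess. Leaving out each library gave 2 to 7 higher and 4 to 8 lower. Over all tested genes it gave 19.4% to 26.6% higher and 16.1% to 24.3% lower. The members' median, -0.14, became -0.27 with upper-quartile factors, -0.45 with total library size alone and 0.20 with cyclic loess, and lay between -0.17 and 0.034 with 1 library left out. The median of all genes shifted to -0.17 with upper-quartile factors and -0.35 with total library size. Over all genes 2362 were higher and 2297 lower (23.3% and 22.7%), against 1885 and 2969 with upper-quartile factors and 766 and 2688 with total library size. DESeq2, run without the low-count filter and so over more genes, gave 2043 and 1274 (10.3% and 6.42%). The cause was not tested.

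Histone genes called higher, 13, became 6 with total library size alone and lay between 10 and 14 with 1 library left out. Those called lower, 5, became 8 with upper-quartile factors, 0 with DESeq2, 1 with cyclic loess and 3 with the replicate block, and lay between 1 and 4 with 1 library left out. Called genes of the other lists numbered 74, and 53 to 83 over the alternatives. Opposite-strand calls, 2, became 1 with no low-count filter, 1 with DESeq2 and 1 to 2 with 1 library left out.

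With the replicate block 3 members were higher and 7 lower, and Cdk6 and Cenpe lost their calls. Replicate numbers are not stated to mark pairs, and deviations of same-numbered libraries correlated at -0.02, -0.03 and -0.07. No pairing by number was detected, but deviations from means of 3 libraries with much counting noise cannot exclude one. Counts of the scarce mitotic genes, 5 to 29 reads per group with LPS added where not tested, limit what these libraries can show.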
